A study of Mus musculus with 4 samples.

Results

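The genes described here are 36 genes of red blood cells and of heme synthesis, read by 43 probes on arrays of mouse otocyst RNA. They comprise the embryonic and adult globins and a globin chaperone, the enzymes of heme synthesis, importers of iron and amino acids, erythroid transcription factors and the erythropoietin receptor, proteins of the red cell membrane and its skeleton, and cytosolic enzymes. They were chosen by name, and for each gene the brightest probe that passed the filter on signal was used. Of the 36, 35 were tested, among 18433 gene names tested and 31791 on the array. Car1, a carbonic anhydrase of red cells, was not tested, since both of its probes were well above background on 0 of 4 arrays in either genotype.

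The otocyst is the epithelial vesicle that forms the inner ear, and it was dissected at E10.5 from NMRI mouse embryos. Mutant embryos (Tbx2/3cDKO) carried Pax2-cre together with Tbx2(fl/fl) and Tbx3(fl/fl). Their floxed Tbx2 and Tbx3, which code T-box repressors of transcription, are cut wherever the Pax2-driven recombinase works, the ear region among other places. Control embryos were labelled Tbx2(fl/?) and Tbx3(fl/?) without a cre, a label that fits 1 or 2 floxed copies of each gene. Each of 4 two-colour arrays compared a mutant with a control RNA of the same sex. Replicates 1 and 2 were female pairs, and replicates 3 and 4 male pairs. The mutant was labelled red (AlexaFluor647) in replicates 1 and 3 and green (AlexaFluor555) in replicates 2 and 4. Separate animals or pools are not named in the labels, and p-values therefore cover the spread of these 4 pairs alone, part of which may be technical.

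Red cells carry oxygen on hemoglobin, a tetramer of alpha-like and beta-like globin chains that each hold a heme. In mid-gestation mouse embryos most circulating red cells are primitive erythroblasts from the yolk sac, which make the embryonic chains zeta and the epsilon-like and beta-like H1 chains beside adult chains, while definitive red cells from the fetal liver, with adult chains, enter the blood later. Heme is built in a series of enzyme steps that begin and end in the mitochondrion, and erythroid cells start it with Alas2, an isoform of their own. GATA1 and KLF1 are transcription factors that bind GATA and CACCC motifs at globin, heme and membrane protein genes.

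The globin genes are close relatives, so the probe sequences matter for what each value measures. The array designer's probes are 60 bases long, and the 4 below are shown because they read an embryonic beta-like, an embryonic alpha-like, an adult alpha and an adult beta gene.
Hbb-y, second probe (chr7:111000448-111000507, minus strand, mm9): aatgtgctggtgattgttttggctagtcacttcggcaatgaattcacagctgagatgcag
Hba-x (chr11:32177668-32177727, plus strand, mm9): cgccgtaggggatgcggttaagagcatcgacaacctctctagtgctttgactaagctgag
Hba-a1 (chr11:32183955-32184014, plus strand, mm9): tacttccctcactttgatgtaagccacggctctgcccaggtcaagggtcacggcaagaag
Hbb-b2 (no position in the files): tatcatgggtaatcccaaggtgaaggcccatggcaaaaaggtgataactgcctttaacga
Over 27 pairs of probes of different globin genes, the longest run of bases shared by a pair was between 4 and 8. Probes were compared with each other and not with the other globin transcripts, so these runs do not show which transcripts a probe reads. The probes of Hba-a1 and Hba-a2 are each listed by the array files under the other's accession as well, so neither can separate these near-identical adult alpha genes. The accession of the Hbb-b1 probe carries the symbol Hbb-bt in RefSeq (GRCm38.p6), another name within the adult beta pair. Exon positions are not given, since no mm9 annotation was used here.

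Promoter sequence is given beside the values as a description. RefSeq promoters (GRCm38.p6, from 250 bases before to 50 after the start) were read for 26 of the 36 genes, 31 promoters in all. No promoter was read for Ahsp, Ank1, Car1, Car2, Fech, Hbb-b1, Hbb-bh1, Nfe2, Slc25a37 and Slc4a1. Absence from the 31 does not show that a gene has no RefSeq promoter. The 150 bases before the start are printed for an embryonic globin gene, the first heme enzyme, a regulator and Tspo2, the only gene of the 35 tested that fell. Capitals mark matches to a GATA motif (AGATAA, its variant AGATAG, the variant TGATAA or the variant TGATAG) or to a CACCC-like motif (CCNCNCCC), each on either strand, with overlapping matches joined into 1 run.
Hba-x (chr11:32276450-32276599, plus strand): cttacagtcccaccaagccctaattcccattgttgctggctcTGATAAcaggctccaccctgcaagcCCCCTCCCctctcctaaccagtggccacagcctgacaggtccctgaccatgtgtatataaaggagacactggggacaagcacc
Alas2 (chrX:150547267-150547416, plus strand): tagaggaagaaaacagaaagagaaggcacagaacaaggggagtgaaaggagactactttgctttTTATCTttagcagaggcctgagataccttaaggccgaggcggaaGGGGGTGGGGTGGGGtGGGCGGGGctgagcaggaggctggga
Klf1 (chr8:84901832-84901981, plus strand): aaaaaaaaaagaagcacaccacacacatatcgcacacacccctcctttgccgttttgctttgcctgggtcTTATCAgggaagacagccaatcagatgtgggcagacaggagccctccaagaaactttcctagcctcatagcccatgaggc
Tspo2 (chr17:48451502-48451651, minus strand): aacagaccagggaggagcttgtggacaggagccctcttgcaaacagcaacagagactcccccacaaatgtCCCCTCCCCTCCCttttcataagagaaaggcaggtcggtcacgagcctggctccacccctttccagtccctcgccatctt
The same 150 bases of Hbb-y, called higher in the mutant, held 0 matches to either pattern, though its whole window held 1 GATA match. Those of Hemgn, which was not called, held 1 GATA match and 4 overlapping CACCC-like matches, all within 1 run of G. The CACCC-like pattern does not cover every CACCC. These letters stand outside any match in the 150 bases of Hbb-y, Hba-x, Klf1 and Tspo2. In the whole windows, 18 of the 31 promoters (58.1%) held a GATA match, against 29.8% of 32851 promoters in the table. Of the 21 promoters of genes called higher in the mutant, described next, 16 (76.2%) held one. A CACCC-like match was in 22 of the 31 (71.0%), in 13 of the 21 (61.9%) and in 49.5% of all promoters. A match to TGACTCA, the NF-E2 and AP-1 type motif, was in 2 of the 31, those of Kel and Trim10, and in 5.20% of all promoters. Some genes have several promoters in these counts, and a match is a description of the letters and not a binding site. The genes were chosen by name from a class where GATA1 and KLF1 bind, so a share above that of all promoters could be foreseen. A link between matches and ratios was not tested.

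Transcripts of red cells were higher in the mutant otocyst samples. Of the 35 genes tested, 25 were higher at a limma adjusted p under 0.05, where 13.3% of all genes tested were called higher. Only Tspo2 was lower, where 9.94% of all genes were called lower, and 9 were not called. Without replicate 3, 1113 of all genes were called lower in place of 1832. The median log2 ratio of mutant over control was 0.68, against 0.00 over all genes tested, and the medians of the 4 arrays were 0.81, 0.56, 0.59 and 0.73. At least 2-fold higher were 12 of the 35, where 0.977% of all genes were called and at least 2-fold higher. In 25 of the 35 the normalized levels of the 4 mutant RNAs lay above those of the 4 control RNAs, which held for 13.1% of all genes, and in Tspo2 they lay below, which held for 10.1%. The ratio was positive on 4 of 4 arrays for 29 genes (21.6% of all genes) and negative on 4 of 4 for 1 (19.9%). Ank1 and Rhag, counted among the genes called higher and not overlapping, passed the filter on signal through the mutant channels alone. With a strict filter, well above background on all arrays in both genotypes, 23 genes were called higher. In whole-tissue RNA, fewer cells of a type and less RNA per cell cannot be told apart, nor can more cells and more RNA per cell.

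**Figure D1:**
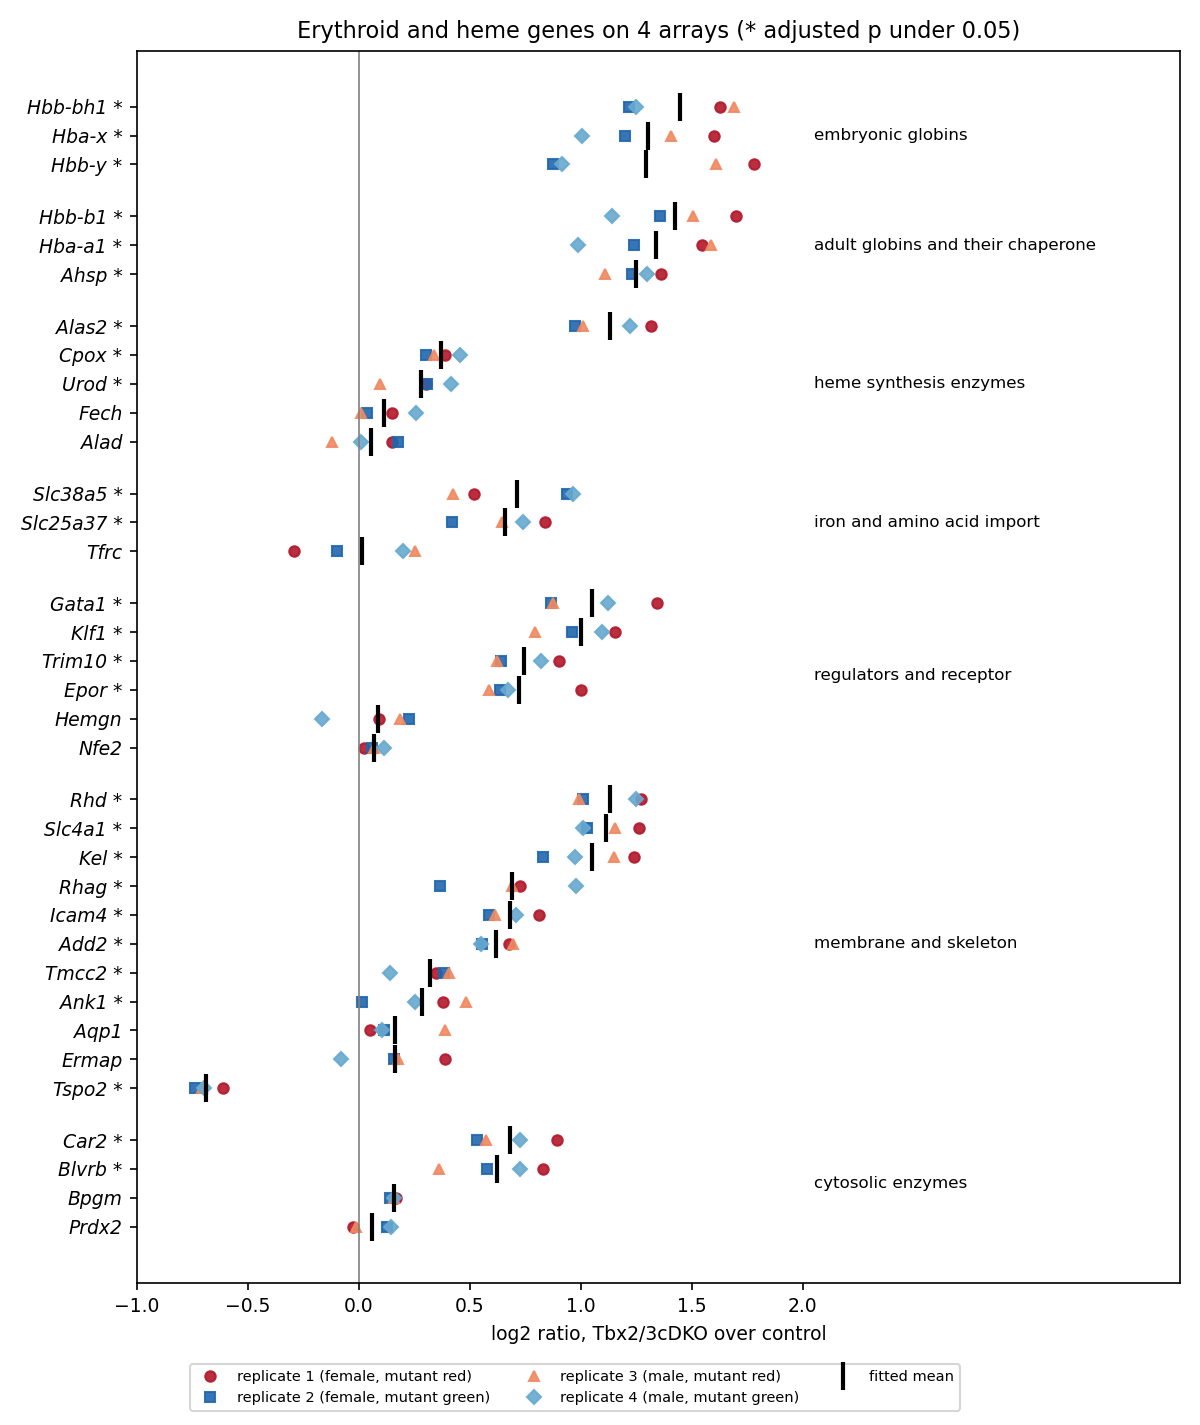
Log2 ratios of mutant over control for the 35 genes tested, on the x axis, with a point for each of the 4 arrays and a bar for the fitted mean, grouped by role. All 5 globin genes and Ahsp lie between 0.88 and 1.78 on every array, Alas2 is the heme enzyme farthest to the right, and Tspo2 lies below 0 on all 4 arrays.

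The array values were checked before the genes were read. In each channel 58.4% to 63.2% of spots were well above background, 0 spots were saturated, and precision is limited by having 4 arrays. Tbx3 was 10.8-fold lower in the mutant (log2 ratio -3.43 ± 0.16, SD, n = 4 arrays; limma adjusted p = 2.68e-06), while the Tbx2 probe read 0.06. Whether that probe lies in the deleted part of Tbx2 is not stated, so it does not check the label. Xist, made by the inactive X chromosome, had log2 levels of 9.36 to 9.52 in the female RNAs and 6.31 to 6.62 in 3 of the male RNAs, but 7.56 in the male mutant RNA of replicate 4. Eif2s3y on the Y chromosome read 5.97 and 6.19 in the female RNAs of replicate 1, 6.82 and 7.02 in those of replicate 2, and 10.42 to 11.01 in the male RNAs. Without replicate 2, 25 of the erythroid and heme genes were called higher, and without replicate 4, 24.

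Markers of other cells that a dissected otocyst can hold moved too. All 12 endothelial markers tested rose, with a median log2 ratio of 0.66, and their summed log2 level was 14.97 to 15.09 in the mutant RNAs and 14.39 to 14.57 in the controls. Of 10 megakaryocyte and platelet markers 8 rose (median 0.52, or 1.12 with the scanner software's ratios, summed level 13.45 to 13.75 against 12.31 to 12.33), and Gp1ba was well above background on 0 of 4 arrays in the control. Of 10 macrophage markers tested 7 rose (median 0.37, summed level 12.56 to 13.05 against 12.30 to 12.48), Ptprc was well above background on 0 of 4 arrays in the control, and Fcgr1 was not tested. Of 11 periotic mesenchyme markers 8 rose, with a median of 0.38 and a summed level of 16.07 to 16.28 against 15.84 to 16.01. Of 12 otic epithelium markers 8 fell, with a median of -0.59 and a summed level of 16.65 to 16.88 against 17.66 to 17.82. The otic markers were well above background on all arrays in both genotypes, except Pax2 on 1 mutant array. The summed level of the 35 erythroid and heme genes was 20.27 to 20.39 in the mutant and 19.01 to 19.48 in the control. Such sums weigh bright probes most, and the 3 embryonic globins alone summed to 19.62 to 19.75 against 18.04 to 18.69, while the 16 genes known from many tissues summed to 17.15 to 17.27 against 16.99 to 17.09. The part of the other cell types in these differences was not tested.

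**Figure D2:**
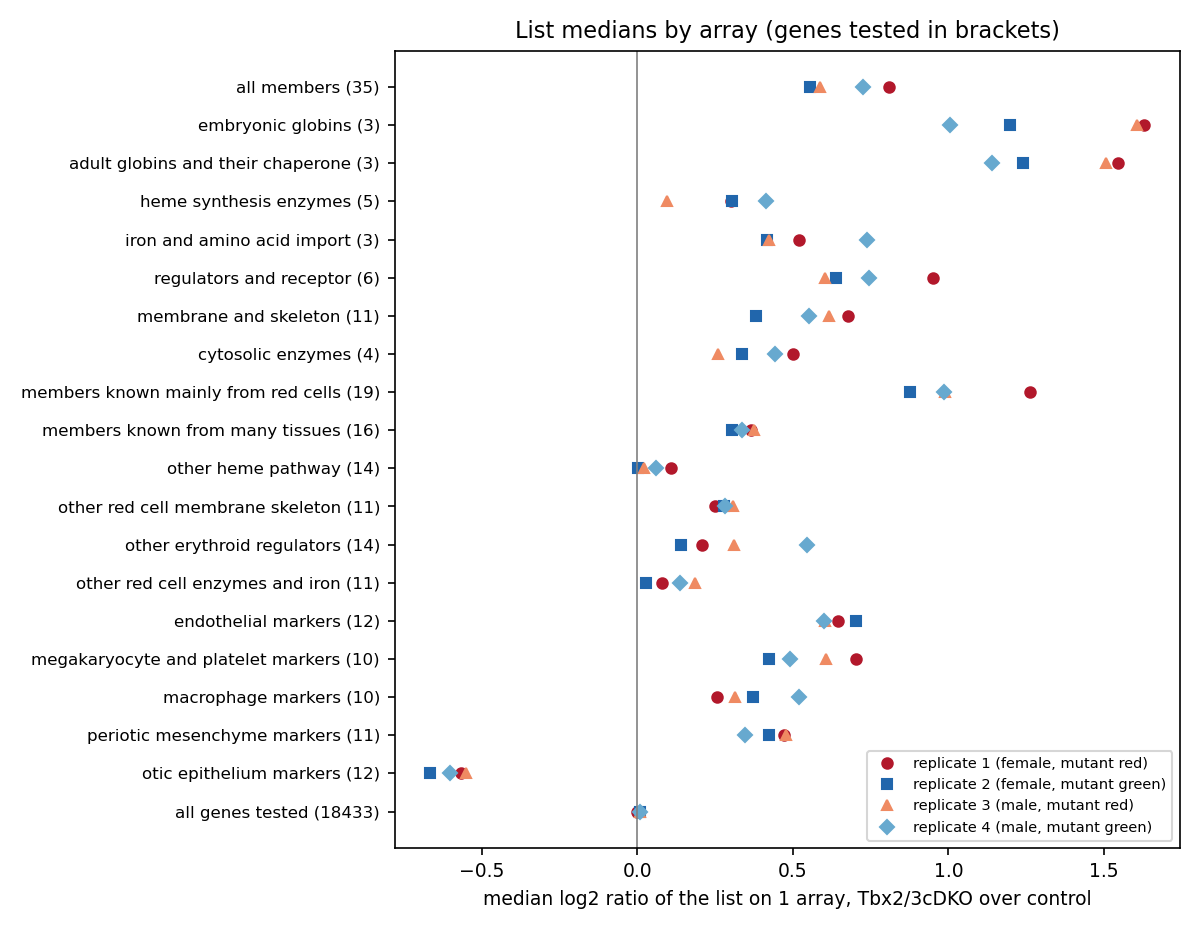
Median log2 ratio of mutant over control of each gene list, with a point for each of the 4 arrays and the number of genes tested in brackets. Both globin groups lie above 1.00 on every array, the endothelial list lies between 0.60 and 0.70, the other heme pathway genes lie near 0, and the otic epithelium markers lie below 0.

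The 3 embryonic globin genes rose on every array. Hbb-bh1 codes the beta-like H1 chain of primitive red cells. Its log2 levels were 18.18, 18.20, 18.10 and 18.35 in the mutant RNAs of replicates 1 to 4, and 16.55, 16.98, 16.41 and 17.10 in the controls. The genotypes did not overlap, and the mutant RNAs were the closer to each other. The log2 ratio was 1.45 ± 0.25 (SD, n = 4 arrays; limma SE 0.05, adjusted p = 9.65e-06), or 2.73-fold, the largest of the 35. Hbb-y codes the epsilon-like chain, and its mutant levels were 18.40, 18.39, 18.35 and 18.34. Its control levels were 16.62 and 16.74 on replicates 1 and 3, read in green, and 17.51 and 17.42 on replicates 2 and 4, read in red. The control levels thus fell into pairs by dye, while the mutant levels stayed within 0.1 of each other. The ratio was 1.29 ± 0.47 (SD, n = 4 arrays; limma SE 0.05, adjusted p = 2.14e-05), with a fitted dye term of 0.40. The second Hbb-y probe, whose sequence is given above, read 1.47 ± 0.38 (SD, n = 4 arrays). Hba-x codes the zeta chain, the embryonic partner of both. Its levels were 17.79, 17.68, 17.55 and 17.72 in the mutants and 16.19, 16.48, 16.14 and 16.71 in the controls, with no overlap and a ratio of 1.30 ± 0.26 (SD, n = 4 arrays; adjusted p = 2.92e-05).

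The adult globin genes rose by about as much. Hba-a1, an adult alpha gene that primitive red cells also use, had levels of 17.98, 18.01, 17.90 and 17.98 in the mutants and 16.44, 16.77, 16.32 and 16.99 in the controls. Its ratio was 1.34 ± 0.28 (SD, n = 4 arrays; adjusted p = 2.43e-05). Hbb-b1, an adult beta gene, had levels of 14.54, 14.38, 14.47 and 14.71 in the mutants and 12.84, 13.02, 12.96 and 13.57 in the controls, a ratio of 1.43 ± 0.24 (SD, n = 4 arrays; adjusted p = 2.24e-05). Ahsp codes the chaperone that holds free alpha chains. Its levels were 13.72, 13.57, 13.37 and 13.67 in the mutants and 12.35, 12.34, 12.26 and 12.38 in the controls, a ratio of 1.25 ± 0.11 (SD, n = 4 arrays; adjusted p = 3.17e-05). In none of these 3 did the genotypes overlap. The arrays of Ahsp lay closer together than those of the globin genes, and its dye term was -0.01. The 5 globin genes had dye terms of 0.18 to 0.40, and each had its largest 2 ratios on replicates 1 and 3, where the mutant was red. The brightest reading of any of the 5 stood at 60.8% of the scanner's saturation value, for Hbb-y.

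**Figure D3:**
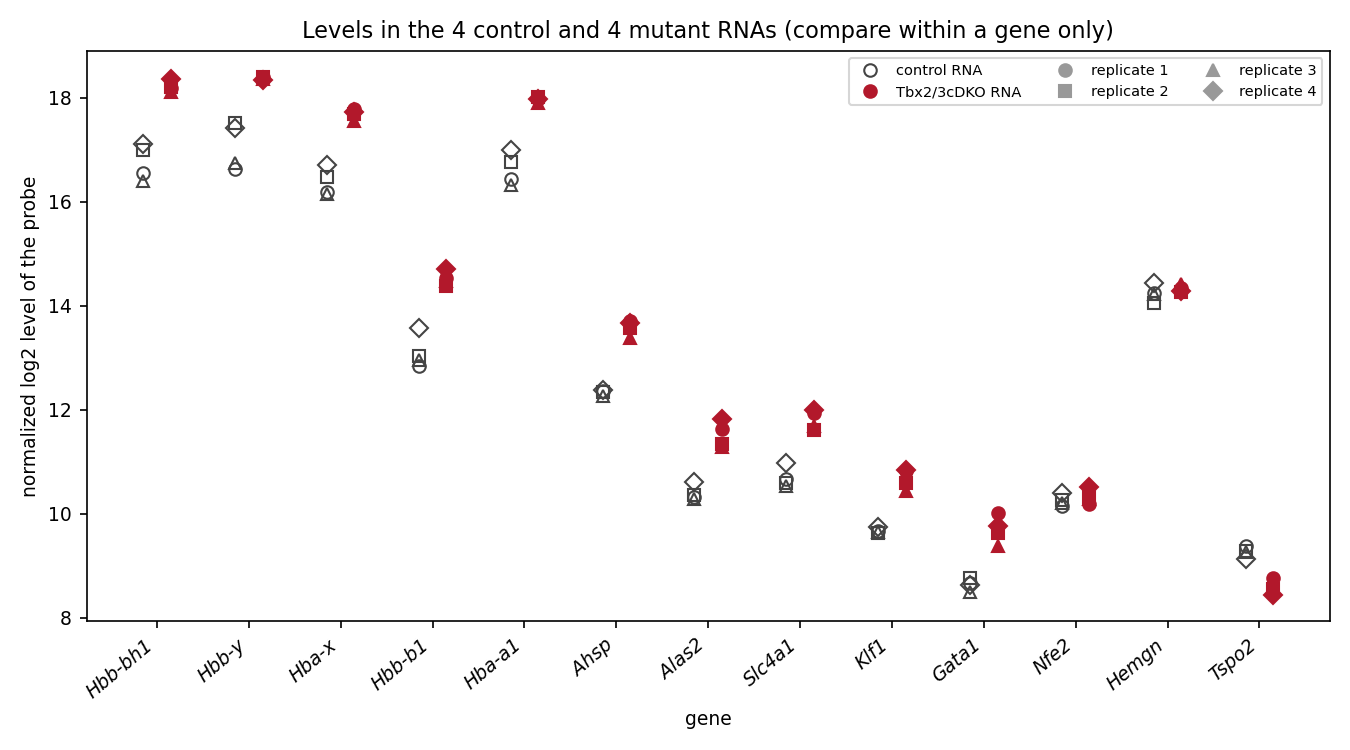
Normalized log2 level of 13 genes, on the y axis, in 4 control RNAs (open) and 4 mutant RNAs (filled), with a symbol for each replicate. Levels may be compared within a gene only, since probes differ in brightness. The mutant RNAs lie above the controls for the globins, Ahsp, Alas2, Slc4a1, Klf1 and Gata1, overlap them for Nfe2 and Hemgn, and lie below them for Tspo2.

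Embryonic and adult globins were set against each other within each array. The mean log2 ratio of the 3 embryonic genes was 1.67, 1.10, 1.57 and 1.06 on replicates 1 to 4, and that of Hbb-b1 and Hba-a1 was 1.62, 1.30, 1.55 and 1.06. The difference, embryonic minus adult, was -0.03 ± 0.11 (SD, n = 4 arrays), positive on 2 of 4, with an exact sign-flip permutation p of 0.875 (two-sided; Benjamini-Hochberg over 2 such contrasts 0.875). The smallest p that 4 arrays allow is 0.125, so the test could not have passed 0.05. Of 8 other globin names looked for, 5 were on the array and 4 were tested, and those 4 rose. Hbb-bt, not found by name, is the symbol that the accession of the Hbb-b1 probe carries. Hba-a2, an adult alpha gene whose probe is listed for Hba-a1 as well, read 1.32 (adjusted p = 1.58e-05). Hbb-b2, an adult beta gene, read 0.87 ± 0.46 (SD, n = 4 arrays; adjusted p = 0.00151), with 0.20 on replicate 2 and 0.91 to 1.20 on the others. The theta genes Hbq1b and Hbq1a read 0.62 and 0.29 (adjusted p = 0.000449 and 0.00759), and without replicate 3 the adjusted p of Hbq1a was 0.0574. Hbb-bh2 was not tested.

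Of the 5 heme synthesis enzymes 3 rose, with a median log2 ratio of 0.28. Alas2, the erythroid form of the first and rate-limiting enzyme, had levels of 11.64, 11.34, 11.29 and 11.82 in the mutants and 10.32, 10.37, 10.28 and 10.60 in the controls. The genotypes were apart by more than the spread within either. Its ratio was 1.13 ± 0.17 (SD, n = 4 arrays; adjusted p = 9.35e-05), or 2.19-fold. Cpox, which oxidises coproporphyrinogen, read 0.37 ± 0.07 (SD, n = 4 arrays; adjusted p = 0.00291), with mutant levels of 11.33 to 11.62 against 11.03 to 11.17. Urod, which removes carboxyl groups in the preceding step, read 0.28 ± 0.13 (adjusted p = 0.0142), from 0.10 on replicate 3 to 0.41 on replicate 4. Without replicate 1 the adjusted p of Urod was 0.0910. Fech, which inserts iron, read 0.11 (adjusted p = 0.243) and Alad, which joins the first precursor in pairs, read 0.05 (adjusted p = 0.621), and the genotypes overlapped for both. Of 14 other genes of the heme pathway, including Alas1, the form of other tissues, Uros, which acts before Urod, and heme oxygenases, 1 rose and 0 fell. Their median was 0.02, and the share called higher was 7.14%, against 13.3% of all genes tested. The gene that rose was Ppox, which acts between Cpox and Fech, at 0.32 (adjusted p = 0.00614), while Alas1 read 0.04 (adjusted p = 0.763) and Uros 0.11 (adjusted p = 0.239).

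Of the 3 importers 2 rose. Slc25a37 codes mitoferrin, which carries iron into mitochondria of erythroid cells. Its mutant levels were 12.75, 12.38, 12.62 and 12.90 and its control levels 11.91, 11.96, 11.97 and 12.16, with no overlap. Its ratio was 0.66 ± 0.18 (SD, n = 4 arrays; adjusted p = 0.000771), and its second kept probe read 0.52. Slc38a5, an amino acid transporter, had mutant levels of 10.10 to 10.51, lowest on replicate 3, and control levels of 9.95, 9.56, 9.68 and 9.54. Its ratio was 0.71 ± 0.28 (SD, n = 4 arrays; adjusted p = 0.000148), larger on replicates 2 and 4, where the mutant was green, than on 1 and 3. Tfrc, the transferrin receptor that brings iron into most dividing cells, had mutant levels of 11.33, 11.35, 11.61 and 11.91 and control levels of 11.62, 11.44, 11.36 and 11.71, which overlapped. Its ratio was 0.01 ± 0.26 (SD, n = 4 arrays; adjusted p = 0.935), negative in both female pairs and positive in both male pairs.

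Of the 6 regulators and receptors 4 rose. Gata1, a factor that red cell, megakaryocyte and mast cell precursors need, had levels of 10.01, 9.62, 9.37 and 9.76 in the mutants and 8.66, 8.76, 8.50 and 8.64 in the controls. Its ratio was 1.05 ± 0.23 (SD, n = 4 arrays; adjusted p = 0.000267). Klf1, an activator of adult beta globin and of many red cell genes, had levels of 10.83, 10.59, 10.45 and 10.84 against 9.67, 9.63, 9.65 and 9.75, a ratio of 1.00 ± 0.16 (SD, n = 4 arrays; adjusted p = 0.000148). The genotypes did not overlap for either gene. Trim10, a RING protein of erythroid differentiation, read 0.75 ± 0.14 (SD, n = 4 arrays; adjusted p = 0.000363). Epor, the erythropoietin receptor, read 0.72 ± 0.19 (SD, n = 4 arrays; adjusted p = 0.000673), with 1.00 on replicate 1 and 0.59 to 0.67 on the others. Nfe2, the tissue-restricted subunit of NF-E2, had mutant levels of 10.18, 10.33, 10.28 and 10.51 and control levels of 10.16, 10.27, 10.21 and 10.40. They overlapped, and the ratio was 0.07 ± 0.04 (SD, n = 4 arrays; adjusted p = 0.411). Hemgn, a nuclear protein of blood cells, had mutant levels of 14.34, 14.27, 14.41 and 14.28 against 14.25, 14.04, 14.22 and 14.44, a ratio of 0.08 ± 0.18 (SD, n = 4 arrays; adjusted p = 0.475). Both were well above background on every array in both genotypes.

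Of 14 other erythroid regulators 7 rose and 1 fell, with a median of 0.28. Tal1, a partner of GATA1 in red cells and vessels, read 0.97 (adjusted p = 4.82e-05). Kit, the stem cell factor receptor of blood progenitors and other lineages, read 1.11 (adjusted p = 0.000154). Bcl11a, a repressor of embryonic globins that neurons also express, read 1.12 (adjusted p = 0.000113). Cbfa2t3, a corepressor in the TAL1 complex, fell by 0.94 on the log2 scale (adjusted p = 0.000148), with -0.78, -0.87, -0.97 and -1.15 on replicates 1 to 4. With the mean of its kept probes Cbfa2t3 read -0.22 and was not called (adjusted p = 0.102).

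Of the 11 membrane and skeleton genes 8 rose and 1 fell, and these 11 ranged from -0.69 to 1.13. Slc4a1, the band 3 anion exchanger, had levels of 11.94, 11.61, 11.69 and 11.99 in the mutants and 10.68, 10.59, 10.54 and 10.98 in the controls. Its ratio was 1.11 ± 0.12 (SD, n = 4 arrays; adjusted p = 2.70e-05). Rhd, the Rh blood group protein, had levels of 10.20, 10.02, 9.97 and 10.26 against 8.93, 9.01, 8.98 and 9.01, a ratio of 1.13 ± 0.15 (SD, n = 4 arrays; adjusted p = 8.07e-05). Kel, the Kell blood group protein, had levels of 9.92, 9.44, 9.71 and 9.93 against 8.67, 8.61, 8.56 and 8.95, a ratio of 1.05 ± 0.18 (SD, n = 4 arrays; adjusted p = 4.38e-05). All 3 blood group or exchange proteins were apart between the genotypes and at least 2-fold higher. Rhag, the Rh-associated glycoprotein, read 0.69 ± 0.25 (adjusted p = 0.00244) and was well above background in 4 mutant RNAs but in 2 of 4 controls. Icam4, the LW blood group adhesion protein, read 0.68 ± 0.10 (adjusted p = 0.000311). Add2, the beta adducin of the spectrin skeleton, which neurons also use, read 0.62 ± 0.08 (adjusted p = 0.000226).

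Smaller or less certain differences were seen in the other membrane genes. Tmcc2 read 0.32 ± 0.12 (SD, n = 4 arrays; adjusted p = 0.00902), but its levels overlapped, from 9.19 to 9.62 in the mutants and from 8.91 to 9.27 in the controls. Without replicate 3 its adjusted p was 0.0508. Ank1, the ankyrin that ties band 3 to spectrin, was well above background on 3 of 4 arrays in the mutant and on 0 of 4 in the control. The mean mutant level was 1.19-fold above a control set, on each array, to the higher of its own level and the dimmest level well above background. This is not a strict bound, since the mutant mean includes an array where the probe was not well above background. The log2 ratio was 0.38, 0.01, 0.48 and 0.26 on replicates 1 to 4. The adjusted p of Ank1 was 0.0157, rising to 0.0907 without replicate 3 and 0.0522 without replicate 4. The water channel Aqp1, which endothelium also makes, read 0.16 ± 0.15 (adjusted p = 0.138).

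Tspo2 was the only one of the 35 that fell. It codes an erythroid relative of the mitochondrial translocator protein. Its levels were 8.77, 8.55, 8.56 and 8.44 in the mutants and 9.38, 9.29, 9.27 and 9.14 in the controls. Each mutant RNA was below each control RNA, and the ratios of -0.61, -0.74, -0.71 and -0.70 on the 4 arrays were among the least spread of the genes. The log2 ratio was -0.69 ± 0.05 (SD, n = 4 arrays; limma SE 0.05, adjusted p = 0.000173), or 1.61-fold lower. Tspo2 has 1 probe, so no second probe could be compared. Its promoter window, printed above in part, held CACCC-like matches and 0 GATA matches, as did those of Gata1 and Urod, which rose.

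Ermap, an erythroid membrane protein of the butyrophilin family, depended on the probe. The brightest of its 3 kept probes read 0.39, 0.16, 0.18 and -0.08 on the 4 arrays, a mean of 0.16 ± 0.19 (SD, n = 4 arrays; adjusted p = 0.132), and its genotypes overlapped. The second probe read 1.04, 0.85, 1.19 and 1.17, a mean of 1.06 ± 0.16, and the third a mean of 0.54 ± 0.20, and for both of these the genotypes did not overlap. With the mean of the 3 probes, the log2 ratio was 0.59 and the adjusted p 0.000318. Which transcripts each probe reads was not tested. The probes of Hbb-y and of Slc25a37 were closer to each other than those of Ermap.

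**Figure D4:**
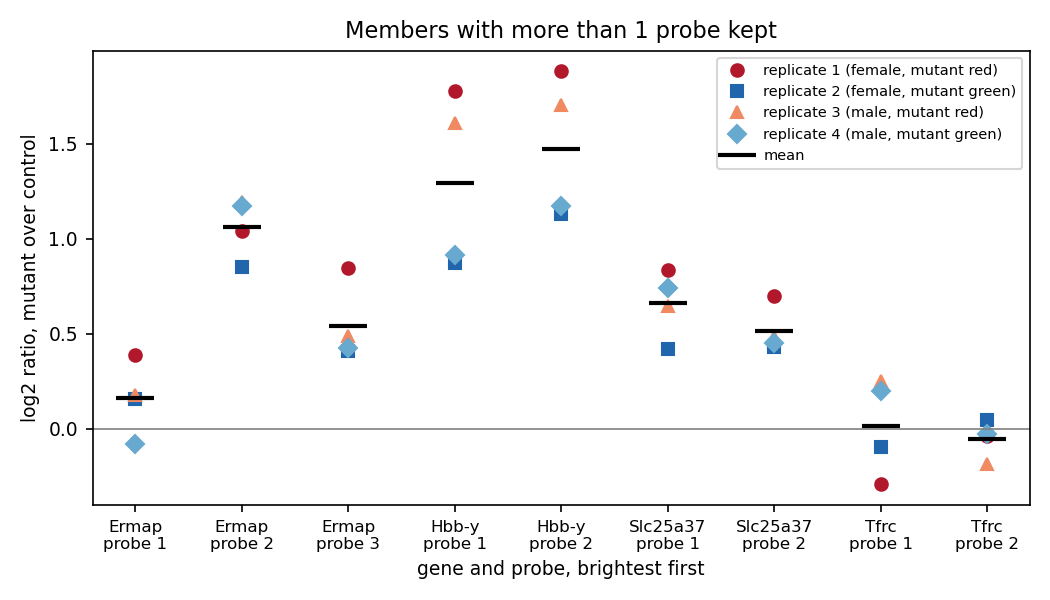
Log2 ratio of mutant over control for each kept probe of the 4 genes with more than 1, with a point for each array and a bar for the mean. The Ermap probes have means of 0.16, 1.06 and 0.54, while both Hbb-y probes and both Slc25a37 probes lie above 0 on every array.

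Of 12 other genes of the red cell membrane and skeleton 11 were tested, 7 rose and 0 fell, with a median of 0.19. Epb42, a skeleton protein that binds band 3, read 0.89 (adjusted p = 8.48e-05). Gypc, a glycophorin of many tissues, read 0.45 (adjusted p = 0.00122).

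Of the 4 cytosolic enzymes tested 2 rose. Car2, a carbonic anhydrase of red cells and many epithelia, had levels of 13.69, 13.30, 13.47 and 13.64 in the mutants and 12.79, 12.76, 12.89 and 12.91 in the controls, with no overlap. Its ratio was 0.68 ± 0.16 (SD, n = 4 arrays; adjusted p = 0.000679). Blvrb, biliverdin reductase B, a flavin reductase abundant in red cells, read 0.62 ± 0.20 (SD, n = 4 arrays; adjusted p = 0.00197). Bpgm makes 2,3-bisphosphoglycerate, which lowers the oxygen affinity of hemoglobin, and its ratio was 0.17, 0.14, 0.16 and 0.16 on the 4 arrays. That is a mean of 0.16 ± 0.01 (SD, n = 4 arrays) with an adjusted p of 0.0652, although the 4 mutant levels, 12.91 to 13.02, lay above the 4 control levels, 12.75 to 12.86. Prdx2, a peroxiredoxin of red cells and other tissues, read 0.06 ± 0.09 (adjusted p = 0.464), with mutant levels of 16.01 to 16.09 within the control range of 15.90 to 16.11. Of 12 other red cell enzymes and iron genes 11 were tested, 2 rose and 0 fell, with a median of 0.14. The share that rose, 18.2%, was near the 13.3% of all genes tested that were called higher. Fth1, the ferritin heavy chain, read 0.31 (adjusted p = 0.00492) and Pklr, the red cell and liver pyruvate kinase, 0.31 (adjusted p = 0.00770), the latter well above background in 1 of 4 control RNAs. Without replicate 1 the adjusted p of Pklr was 0.0506.

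The genes were also described by how closely they are known to belong to red cells, a split that the design could not test at 0.05. Of the 19 tested that are known mainly from red cells, 15 rose and 1 fell, with a median of 1.05, and all 12 genes at least 2-fold higher were among them. Of the 16 known from many tissues, 10 rose and 0 fell, with a median of 0.30. The medians of the first group were 1.26, 0.88, 0.99 and 0.99 on replicates 1 to 4, and those of the second 0.36, 0.31, 0.37 and 0.34. The difference was 0.68 ± 0.15 (SD, n = 4 arrays) and positive on 4 of 4 arrays, with an exact sign-flip permutation p of 0.125 (two-sided; 0.25 after Benjamini-Hochberg over 2 contrasts), the smallest that 4 arrays allow. Within the first group, Nfe2, Hemgn and the brightest Ermap probe were not called and Tspo2 fell.

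Of the genes on the cell type lists, 2 of platelets had the largest positive ratios. Pf4 and Ppbp, chemokines stored in platelet granules, read 1.44 and 1.29 (adjusted p = 3.27e-05 and 4.81e-05), and Gp9 and Treml1, platelet membrane proteins, 0.96 and 0.87 (adjusted p = 4.63e-05 and 7.54e-05). Among endothelial genes Robo4 read 0.86, Sox17 0.79, Emcn 0.70 and Pecam1 0.66, and among macrophage genes Lyz2 read 0.65 and Csf1r 0.61. Of the mesenchyme genes, Osr1 read 1.24, Foxc2 1.18, Foxc1 0.93 and Tbx18 0.79, the first of these close to Ppbp. Twist1, Col1a1 and Prrx2 of the same list read 0.09, 0.11 and -0.18 and were not called. Of the otic epithelial markers, Oc90, an otoconial matrix protein, read -1.83 and Gbx2, a homeobox gene of the dorsal otocyst, -1.50.

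The size of the difference between genotypes was compared between the sexes with an interaction term. It passed an adjusted p of 0.05 for 0 of the 35 genes, where 0.0109% of all genes passed, and 3 (Tfrc, Alad and Ermap) had an unadjusted p under 0.05. The smallest adjusted p was that of Tfrc, 0.158, with 1 female and 1 male pair in each dye orientation.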

How the data were processed

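Otocyst RNA, amplified and dye-labelled per the labels' protocols, was read on 4 Agilent two-colour arrays of 1 slide. The deposited spot and background intensities came from Agilent Feature Extraction, version 10.7.3.1 in the submitters' processing notes and, per the file headers, in the same scan. The software's log10 ratios of red over green came from background-subtracted, dye-normalized signals, per the file headers. It also set the flags for spots, per the file headers. The authors' deposited value table gives fold ratios with a sign, a score without a stated unit. On a log2 scale, they were within 0.001 of the scanner's ratios for 90.8% to 93.3% of probes. Its direction was that of the dye labels, each column's median was 1, and for the other values the steps are not given in the sources used here.

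In limma 3.58.1 under R 4.3.3, signals were corrected with normexp (offset 50) and ratios normalized by loess, with control spots at weight 0. Non-uniform spots, 21 to 32 an array, were dropped. Spots of a probe were averaged, and 23177 of 39429 probes passed the filter, which asked for a signal well above background in 3 or 4 mutant channels or in 3 or 4 control channels. The model (lmFit, eBayes; prior degrees of freedom 4.82, residual 2) had a genotype term, signed by dye, beside a term for dye. P-values were adjusted by Benjamini-Hochberg over the brightest kept probe of each of 18433 gene names, and SDs still contain the dye effect. Levels are channel values after loess and Aquantile. In simulated data with 23177 probes, 60 of 100 probes changed 1.5-fold and 90 of 100 changed 2-fold were recovered, and 1 of 151 calls was an unchanged probe. The simulation changed far fewer probes than were called in the data, drew noise independently on each array and adjusted p over probes. Its rates therefore need not hold for the data.

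The genes and lists were chosen with earlier results of these data known. All 36 genes are named, and of each other list up to 4 genes with the smallest adjusted p past 0.05, with those few others that a sentence turns on. Some genes of these lists are not reported here. Of the 36, 34 had a probe accession with the same symbol in RefSeq (GRCm38.p6), used for names and promoters; probe positions are those of the files (mm9). Alternatives covered background correction, normalization, the authors' table, the filter, terms for dye and sex, the probe rule, separate channels and leaving out each replicate.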

Additional observations from a re-analysis of the deposited data

Results flagged for a closer look

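Tfrc, the transferrin receptor, had ratios of opposite sign in the sexes. The log2 ratio was -0.29 and -0.10 in the female pairs of replicates 1 and 2 and 0.25 and 0.20 in the male pairs of replicates 3 and 4. The difference, female minus male, was -0.42 (SE 0.10). It was tested with limma's interaction term, and the adjusted p over all genes was 0.158 (unadjusted 0.00391), so it did not pass 0.05. The second kept probe of Tfrc, well above background on 3 of 4 arrays in each genotype, read -0.04 and 0.04 in the female pairs and -0.18 and -0.03 in the male pairs.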

How the results depend on the processing

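The 14 alternatives reversed the direction of 0 of the 26 called genes, and 23 calls held wherever they were tested. The others were Ank1, Urod and Tmcc2 (adjusted p 0.0657 with separate channels and no replicate block). The strict filter left Ank1, Rhag and Aqp1 untested. Between 23 and 27 genes were called higher and 1 lower in every alternative. The membrane and skeleton median, 0.62, was 0.79 with the scanner's ratios and with the value table. The median of genes known from many tissues, 0.30, was 0.44 with each of these and 0.35 with the strict filter. The cytosolic enzyme median, 0.39, was 0.16 with no filter, where Car1 enters. Aqp1 was called higher with the scanner's ratios, the value table or no background correction (adjusted p 0.0255, 0.0250 and 0.0316), and Ermap and Bpgm with a sex term (0.0296 and 0.0330). Among the other lists, the platelet median, 0.52, was 1.12 with the scanner's ratios or the value table and 0.96 with the strict filter, which left 4 platelet genes called higher. The otic median was -0.65 with the strict filter, and 0 otic markers were called higher with the scanner's ratios, the value table, median centring or separate channels. With a sex term 3 other heme genes, 5 red cell enzymes and iron genes (1 with the strict filter) were called higher, and 2 erythroid regulators and 1 mesenchyme marker lower. Erythroid regulators called lower numbered 2 with median centring and 0 with the mean of kept probes, where 1 mesenchyme marker was lower. The causes were not tested. Leaving out a replicate gave 23 to 25 genes called higher and a median of 0.62 to 0.73. The embryonic minus adult globin difference ranged from -0.06 to 0.02. The other membrane median was 0.21 to 0.24, and 1 to 2 red cell enzymes and iron genes, 0 to 1 otic markers and 1 to 2 regulators were called in the directions above. Dim probes, as for Ank1, Rhag and Pklr, limit what the arrays show. The main values are ratios within an array and so are paired, and the unpaired fit of separate channels, with no replicate block, called 24 genes higher.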
